A study of Homo sapiens with 3 samples.

Results

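Of 8 transcription regulators that mark the progenitors of the human kidney (SIX2, EYA1, PAX2, PAX8, WT1, SALL1, OSR1 and LHX1), 5 gave signals above background in HEK-293T cells kept without stress. These were SIX2, EYA1, SALL1, WT1 and, on 1 of its 8 probe sets, PAX8. PAX2 lay at the background threshold, and OSR1 and LHX1 stayed below it in every culture. Of all 19775 genes measured, 50.6% were above background, so that a count of 5 of 8 is near what the array gives for genes at large. The members were taken by symbol from the platform annotation. They have 20 of the 54675 probe sets, each listed for 1 gene alone, and 7 of these 20 were above background, against 37.3% of all probe sets.

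The nephron forms from mesenchyme that condenses around the tips of the ureteric bud. In the mouse, Osr1 marks the intermediate mesoderm from which this tissue comes, and Pax2 and Pax8 act early in the nephric lineage. Six2 keeps the cap mesenchyme in a self-renewing state, with the phosphatase Eya1 as its coactivator and the zinc finger factors Sall1 and Wt1 active in the same cells. Lhx1 is turned on when the cells leave this state and form the renal vesicle.

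HEK-293T is a transformed line of human embryonic kidney cells, and the sample records state that a temperature-sensitive gene for the SV40 T antigen was inserted. Total RNA came from 3 unstressed cultures in DMEM with 10% fetal bovine serum, and labeled cRNA made from each was hybridised on its own Affymetrix U133 Plus 2.0 array. Both 48 h cultures were harvested 48 h after seeding, at 375000 cells (low-seeded) and at 750000 cells (high-seeded), and the 24 h culture was harvested 24 h after seeding at 1000000 cells. Harvest time and seeding therefore cannot be told apart, and separate passages are not stated. The array study served to find genes expressed in the line before siRNA design, and no other cell type or treatment is among the arrays.

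The deposited values are MAS5 signals, an intensity on a linear scale. A signal counted as above background if it exceeded, on each of the 3 arrays, the 95th percentile of a reference of 422 probe sets, those for olfactory and taste receptors and for genes restricted to other tissues. This threshold was 107.3 and 129.4 in the low- and high-seeded 48 h cultures and 96.1 in the 24 h culture. A gene passed with any of its probe sets. Probe sets differ in how strongly they bind, so each value below is read against these thresholds and against the same probe set in the other cultures. Where a pair of 48 h values is given, the low-seeded culture stands first. The number of arrays limits the precision, and the SDs given include the differences between the culture conditions.

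SIX2, the homeobox factor of the cap mesenchyme, was above background on both of its probe sets in every culture. Its probe set 206510_at gave 614.9 and 690.4 in the low- and high-seeded 48 h cultures, against 808.4 in the 24 h culture (704.6 ± 97.5, SD, n = 3 arrays). The lowest multiple of its own array's threshold was 5.34. The second, 206511_s_at, gave 233.1 and 327.6 in the 48 h cultures and 235.1 in the 24 h culture (265.3 ± 54.0). On the first probe set the 24 h culture was highest and on the second the high-seeded 48 h culture, so the order of the cultures was not shared.

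EYA1, a coactivator of SIX-family proteins with phosphatase activity, was above background on 1 of 2 probe sets. The probe set 214608_s_at gave 344.7 and 438.0 in the 48 h cultures and 296.9 in the 24 h culture (359.9 ± 71.7, SD, n = 3 arrays), at 3.09 times the threshold or more. The other, 1569736_at, gave 6.31 and 29.0 at 48 h and 29.9 at 24 h, and exceeded the threshold on none of the arrays. The call for EYA1 thus rests on a probe set whose mark, _s_at, stands for possible matches to further genes (as does _x_at), and EYA1 was lost when probe sets with these marks were left out. Over the 8 genes, 3 of 9 probe sets with these marks were above background, against 56.4% of such probe sets on the array, and 4 of 11 without them, against 29.8%.

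SALL1, a zinc finger factor that works with the NuRD repressor complex, was above background on both of its probe sets in every culture. On 206893_at it gave 440.2 and 311.9 in the 48 h cultures and 430.1 in the 24 h culture (394.1 ± 71.3, SD, n = 3 arrays). On 229273_at it gave 431.5 and 357.3 at 48 h and 437.4 at 24 h (408.8 ± 44.6). The high-seeded 48 h culture was lowest on both. Neither probe set carries these marks, and the lowest of the 6 values was 2.41 times its threshold.

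WT1, a zinc finger factor of nephron progenitors and later of podocytes, was above background on 206067_s_at, with 362.1 and 514.0 in the 48 h cultures and 363.1 in the 24 h culture (413.1 ± 87.4, SD, n = 3 arrays). The low-seeded 48 h and the 24 h culture were nearly equal there, and the high-seeded one stood higher. The other probe set, 216953_s_at, gave 85.1 and 39.2 at 48 h and 107.4 at 24 h, over the threshold in the 24 h culture alone. Both probe sets are marked _s_at, so WT1 had no call without them. The probe set listed for WT1-AS, the antisense neighbour of WT1, was not above background, with 58.0 and 131.4 in the 48 h cultures and 29.3 in the 24 h culture.

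**Figure D1:**
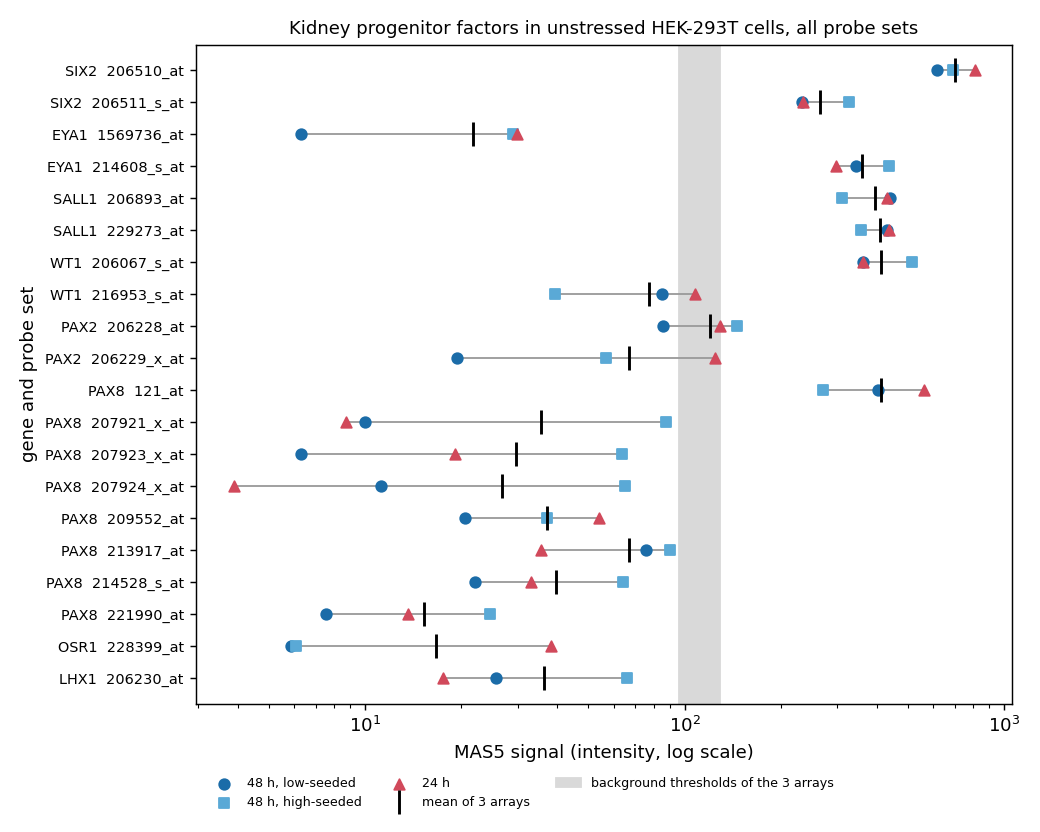
MAS5 signals of all 20 probe sets of the 8 kidney progenitor factors. Signals (intensity) run along the horizontal log axis, with 1 symbol per array, a vertical tick at their mean and a grey band over the range of thresholds, 96.1 to 129.4. Both probe sets of SIX2 and of SALL1 lie right of the band, 1 of 2 does for EYA1 and WT1, and 1 of 8 for PAX8.

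PAX2 and PAX8, paired box factors that share roles in the early kidney of the mouse, differed in how their calls came about. The PAX2 probe set 206228_at gave 85.5 and 145.9 in the 48 h cultures and 128.9 in the 24 h culture (120.1 ± 31.1, SD, n = 3 arrays). It exceeded the threshold in 2 cultures and reached 0.797 times it in the low-seeded 48 h culture. PAX2 was therefore above background where 2 arrays sufficed, with the 90th percentile as threshold and without the low-seeded 48 h culture. Its other probe set, 206229_x_at, gave 19.5 and 56.9 at 48 h and 124.1 at 24 h, over the threshold in the 24 h culture alone.

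PAX8 had 8 probe sets, and 1 of them, 121_at, was above background. It gave 403.0 and 271.3 in the 48 h cultures and 561.2 in the 24 h culture (411.9 ± 145.2, SD, n = 3 arrays), at 2.10 times the threshold or more. The other 7 probe sets ranged from 3.88 to 90.1 over all arrays, and none of them exceeded the threshold on any array. Among them were 3 marked _x_at, which gave 3.88 to 19.1 in the low-seeded 48 h and the 24 h culture and 63.8 to 87.8 in the high-seeded 48 h culture. The call for PAX8 thus rests on a single probe set that its other probe sets did not share, and the cause of this disagreement was not tested. None of the 3 probe sets listed for PAX8-AS1, the antisense neighbour of PAX8, was above background, the brightest giving 88.6 and 49.0 at 48 h and 33.0 at 24 h.

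OSR1, the zinc finger factor of the intermediate mesoderm, gave 5.87 and 6.06 in the 48 h cultures and 38.2 in the 24 h culture on its single probe set 228399_at. The highest of these was 0.398 times the threshold of its array. LHX1, the LIM homeobox factor of the renal vesicle, gave 25.7 and 66.0 at 48 h and 17.5 at 24 h on its single probe set 206230_at, at most 0.510 times the threshold. Each of these genes thus had no probe set above background on any array, which bounds what these probe sets could detect and does not show that the genes are silent.

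Of the 7 probe sets above background, 6 varied more between the cultures than the median probe set of like signal. Their SD on the scale of log2(signal + 20.9) ran from 0.15 for the SALL1 probe set 229273_at to 0.50 for the PAX8 probe set 121_at, with a median of 0.26. Over all 6202 probe sets above background whose mean signal lay in the same range, 265.3 to 704.6, the median SD was 0.18. This is a description of 7 probe sets of 5 genes on the same 3 arrays, and no test was made of it. The 13 probe sets not above background had a median SD of 0.57, against 0.47 for all 34267 probe sets not above background.

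The labels allow a comparison of both 48 h cultures with the 24 h culture, and none of the kidney progenitor factors passed the test in it. The fit (limma, on log2(signal + 20.9)) covered 22338 probe sets bright enough to be tested, of which 0.304% were called (68 probe sets, limma, adjusted p under 0.05). All of these calls were lost when limma was run with no mean-variance trend, which left 0 called and 1352 at an unadjusted p under 0.05. The 8 member probe sets among them belonged to 6 genes, 0 were called, and 1 had an unadjusted p under 0.05. The median difference was -0.16 over these 8, against -0.00473 over all probe sets tested. It was nearer 0 with either 48 h culture alone, at -0.0333 without the low-seeded and -0.0150 without the high-seeded one. With a single 24 h array, only the 48 h pair informs the spread of each probe set (1 residual degree of freedom), and limma borrows the rest from all probe sets tested.

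The PAX8 probe set 121_at had the largest difference of the 8, being lower in both 48 h cultures than in the 24 h culture. Its log2 difference, 48 h minus 24 h, was -0.73 (standard error 0.28, 95% interval -1.31 to -0.14, limma, unadjusted p = 0.0178, adjusted p = 0.393), and over the alternatives run the adjusted p ranged from 0.394 to 0.756. Without the high-seeded 48 h culture the difference was -0.46, and without the low-seeded one -0.99. EYA1 was higher in both 48 h cultures, with a log2 difference of 0.37 (interval -0.22 to 0.95), and of 0.20 without the high-seeded 48 h culture. SIX2 differed by -0.30 on 206510_at (interval -0.70 to 0.10) and by 0.22 on 206511_s_at (interval -0.48 to 0.91), in opposite directions. The probe sets of SALL1 gave -0.20 and -0.15, that of WT1 0.24 and that of PAX2 -0.17, all with intervals that span 0. For WT1, PAX2, the SIX2 probe set 206511_s_at and the SALL1 probe set 206893_at, the sign also depended on which 48 h culture was set against the 24 h culture, and the difference of the SALL1 probe set 229273_at was -0.0188 without the high-seeded one. After adjustment, the order of the cultures is thus not resolved beyond their spread for any of the 6 genes. Differences as large as the ends of these intervals are not excluded with 3 arrays.

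**Figure D2:**
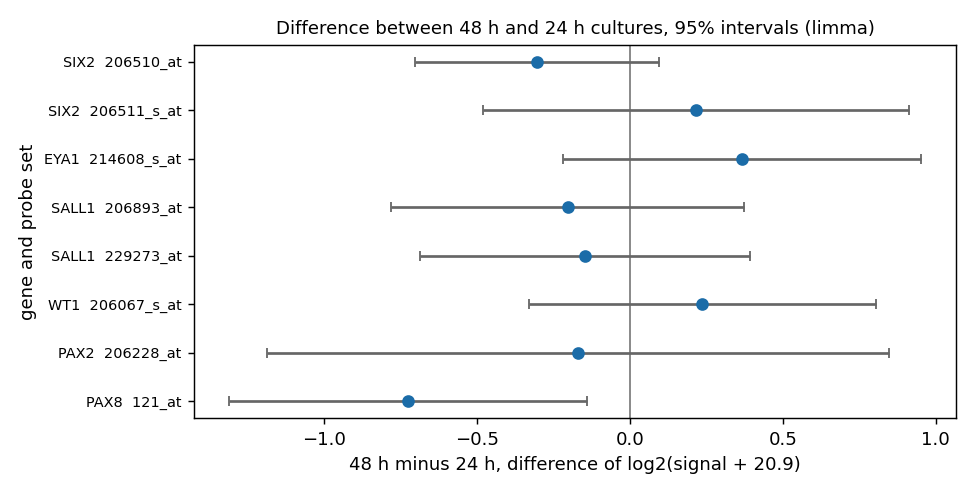
Difference of log2(signal + 20.9) between 48 h and 24 h cultures for the 8 member probe sets tested. Points are 48 h minus 24 h, so that positive values are higher at 48 h, and bars are 95% intervals (limma, 2 arrays at 48 h and 1 at 24 h). Only the interval of the PAX8 probe set 121_at, at -0.73, does not span 0, and its adjusted p is 0.393.

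Relatives of the 8 factors were above background in 16 of 32 cases, close to the 50.6% of all genes. SIX-family genes above background were SIX4 and SIX5. On 1 of its 2 probe sets, SIX4 gave 928.5 and 1106 in the 48 h cultures and 950.1 in the 24 h culture. SIX5 gave 286.6 and 171.6 at 48 h and 166.6 at 24 h on 1 of its 3 probe sets. SIX3 and SIX6 were not above background. All 3 other EYA genes passed, EYA3 with 2505 ± 161.0, EYA4 with 879.9 ± 62.1 and EYA2 with 224.8 ± 28.5 (SD, n = 3 arrays).

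Of the other SALL genes, SALL2 gave 1044 ± 18.6 and SALL3 222.3 ± 34.3 (SD, n = 3 arrays), while SALL4, a factor of pluripotent and germ cells, was not above background at 19.5 ± 10.4. OSR2 was above background, with 568.5 and 701.1 in the 48 h cultures and 619.2 in the 24 h culture, whereas OSR1 was not. The PAX genes above background were PAX6, a factor of the eye and the nervous system, with 1391 ± 67.2, and PAX3, a factor of the neural crest and muscle, with 372.6 ± 109.3 on 1 of its 4 probe sets. The remaining 5 PAX genes were not. PAX9 came closest, with 105.6 and 206.3 at 48 h and 132.1 at 24 h, under the threshold in the low-seeded 48 h culture alone.

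Among LIM homeobox genes 6 of 11 were above background, although LHX1 was not. ISL1 gave 1005 ± 96.8 and ISL2 678.5 ± 59.7, both known from motor neurons, and LHX6 gave 350.7 ± 28.3 (SD, n = 3 arrays). LHX8 gave 209.4 ± 27.2, and LHX2, at 150.2 ± 36.5, and LHX4, at 127.4 ± 16.3, lay just over the threshold. LHX6 and LHX2 each passed on 1 of 2 probe sets and LHX4 on 1 of 3. The EGR genes, whose zinc fingers resemble those of WT1, were above background in 0 of 3 cases.

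**Figure D3:**
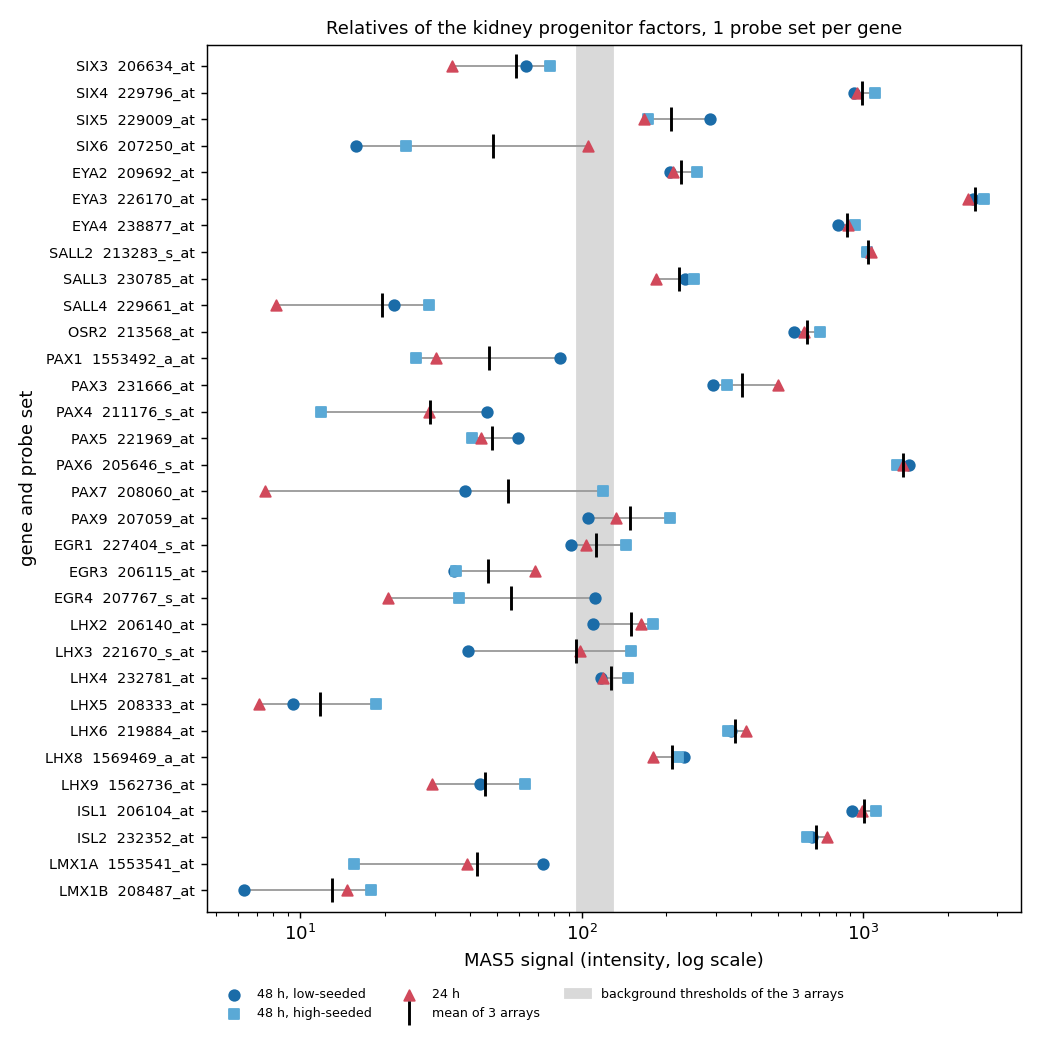
MAS5 signals of genes related to the 8 factors, with 1 probe set per gene (the brightest one above background or, where there was none, the brightest). Signals (intensity) run along the horizontal log axis, with 1 symbol per array, a vertical tick at their mean and a grey band over the range of thresholds, 96.1 to 129.4. SIX4, EYA3, EYA4, SALL2, OSR2, PAX6, ISL1 and ISL2 lie well right of the band.

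Genes of proteins known to work with the 8 factors were above background in 20 of 23 cases, against 50.6% of all genes. They include DACH1, which binds EYA proteins, at 2427 ± 277.4, and PAXIP1, which links PAX2 to histone methylation, at 2679 ± 288.6 (SD, n = 3 arrays). HDAC1, HDAC2, RBBP4, RBBP7, CHD4, MTA1 and MTA2, subunits of the NuRD complex that SALL1 recruits, were all above background. LDB1, the adaptor of LIM homeobox factors, was so at 159.6 ± 40.2, its lowest value being 1.09 times the threshold. The 3 genes not above background were DACH2, LDB2 and the WT1-interacting protein WTIP. Many of these cofactors serve other factors in most cell types, and EYA2 and EYA3 are also counted among the relatives.

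Other genes of the cap mesenchyme, EYA4 again among them, were above background in 14 of 18 cases. CITED1 is a transcriptional coactivator and a marker of the earliest nephron progenitors in the mouse. It gave 2117 and 1887 in the 48 h cultures and 1570 in the 24 h culture. CITED1 is singled out here after its values were seen. Its single probe set is marked _s_at, as are those of SALL2, MTA2, SOX8 and INA. As for WT1, these genes have no call without probe sets so marked. MEOX1, MEOX2, DAPL1 and the integrin ITGA8 were not above background, ITGA8 just missing the threshold in the 24 h culture with 93.4. Of genes of the renal vesicle and early nephron, 8 of 14 were above background, among them the Notch genes JAG1 (on 2 of its 6 probe sets), DLL1 (on 1 of 2) and NOTCH2 and the ligand BMP7. WNT4, which drives the passage from mesenchyme to epithelium, FGF8, CDH6 and CCND1 were not.

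Genes of the nephric duct and ureteric bud were above background in 7 of 16 cases. GATA3 (on 1 of its 3 probe sets), EMX2, SOX8 and SOX9 passed, and RET and GFRA1, the receptor and coreceptor for GDNF, WNT9B and WNT11 did not. Of podocyte genes 3 of 9 passed, namely PODXL, CD2AP (on 1 of its 2 probe sets) and PTPRO (on 1 of its 3 probe sets). PTPRO, a receptor phosphatase, gave 2054 and 1620 in the 48 h cultures and 3135 in the 24 h culture (log2 difference -0.77, standard error 0.14, limma, adjusted p = 0.0151), and it was the only gene of these lists called between the cultures. It was not called when limma was run with no mean-variance trend. NPHS1, the slit diaphragm protein of mature podocytes, was not above background at 12.6 ± 4.23 (SD, n = 3 arrays).

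Stromal genes passed in 6 of 10 cases, FOXD1 among them at 1607 ± 304.2 (SD, n = 3 arrays), and TCF21, PDGFRA, PDGFRB and DCN did not. The single probe set of FOXD1 is also marked _s_at. Genes listed for the mature tubule, most of them transport genes, passed in 1 of 10 cases. The list holds CALB2, which is not a transport gene, whereas CALB1 was counted with the nephric duct, and neither was above background. The gene that passed was LRP2, the endocytic receptor megalin. On 1 of its 2 probe sets it gave 168.0 and 217.7 in the 48 h cultures and 110.8 in the 24 h culture. The kidney lists thus differed in their share above background, from 14 of 18 for the cap mesenchyme to 1 of 10 for the mature tubule. The difference was not tested, the lists having been chosen by hand with earlier results of these data known. How far the listed genes are restricted to their cell type was not assessed, so these shares do not show a cell identity.

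Markers of other cell types were also read. Of neural and adrenal markers 3 of 13 were above background, all of them neuronal intermediate filaments. NEFM gave 5606 ± 211.7 on 1 of its 2 probe sets, NEFL 2076 ± 40.7 and INA 1094 ± 112.2 (SD, n = 3 arrays). The 10 not above background were the neuronal gene STMN2, PHOX2A, SOX10, the granins CHGA and CHGB, the chromaffin enzymes TH and DBH and the steroidogenic genes NR5A1, STAR and CYP11A1. Of these, CHGA exceeded the threshold in the low-seeded 48 h culture alone. Endothelial and blood markers were above background in 0 of 8 cases. In bulk RNA such as this, fewer cells of a type and less RNA per cell cannot be told apart.

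**Figure D4:**
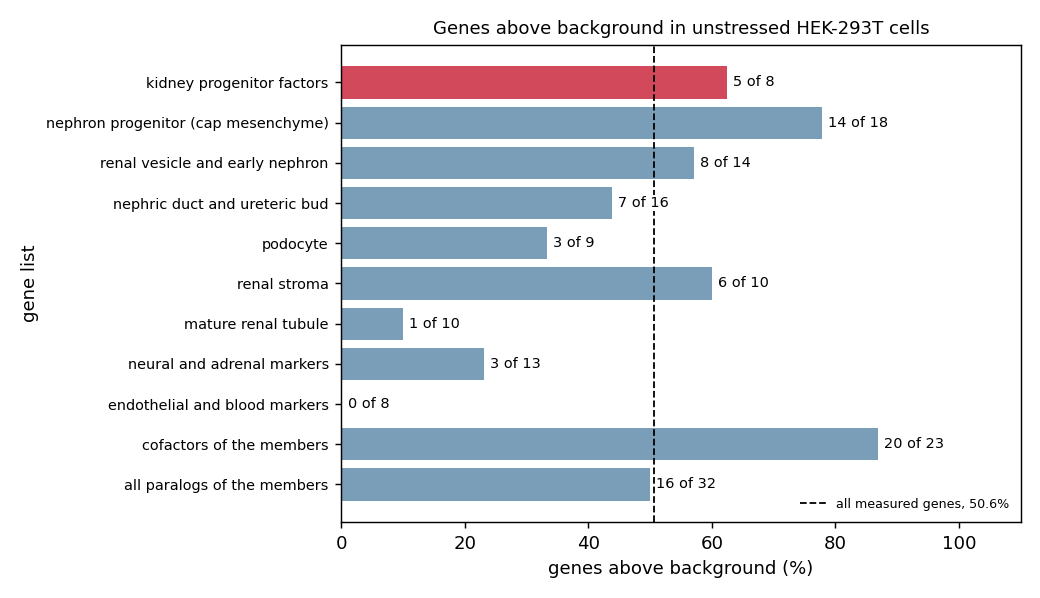
Share of genes above background for the 8 kidney progenitor factors and for each gene list. The horizontal axis gives the percent of measured genes with at least 1 probe set above background on all 3 arrays, the labels give the counts, and the dashed line marks the 50.6% of all genes. The cap mesenchyme genes (14 of 18) and the cofactors (20 of 23) lie right of the line, and the mature tubule genes (1 of 10) left of it.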

How the data were processed

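The authors made cDNA from total RNA, transcribed it into cRNA carrying biotin, hybridised this to 1-colour Affymetrix arrays and normalized with MAS5 (the submitters' processing notes name GCOS 1.0). The deposited values are signals, an intensity on a linear scale, with a mean of 500.1 on each array after trimming 2% at each end. The authors' absent/present calls were not used here. RNA integrity numbers were 9.6 and 10.0 for the 48 h cultures and 9.5 for the 24 h culture.

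The platform annotation named the genes, with current symbols looked up by gene ID (GRCh38.p14). A single gene stood beside 41097 of the 54675 probe sets, and only these were used for gene names. Background was read from 422 probe sets of 297 genes, 155 of them for olfactory and taste receptors, and 9 of the 422 passed their own threshold. Arrays correlated at 0.985 to 0.988 in log2 signal over the probe sets above background.

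Cultures were compared by limma 3.58.1 (R 4.3.3) with a mean-variance trend, on log2(signal + 20.9). The number added is the median signal of the reference and dampens changes of low signals. Probe sets were tested where their mean exceeded the mean threshold of 110.9, with Benjamini-Hochberg adjustment over all of them. P-values rest only on the spread between the low- and high-seeded 48 h cultures, pooled over probe sets. This spread includes their difference in seeding and may otherwise be technical. The call and the fit were tested on simulated data.

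The members and lists were chosen with earlier results of these data known. Named were all members, their relatives above background, and of other lists the smaller side if it held at most 5 genes, or else the first 4 on each side. Genes named beyond this were chosen after their values were seen. Alternatives were other percentiles and references, 2 arrays sufficing, leaving out probe sets marked _s_at or _x_at, requiring most probe sets of a gene, quantile normalization, another added value, no filter, equal medians, no trend and leaving out arrays.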

Additional observations from a re-analysis of the deposited data

How the results depend on the processing

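SIX2 and SALL1 were above background under all 11 alternatives, and OSR1 and LHX1 under 0. WT1 was so under 9, PAX8 under 9, EYA1 under 8 and PAX2 under 3. Of the 8 factors 5 were above background, against 3 at the 99th percentile (SIX2, SALL1 and WT1), 3 without probe sets marked _s_at or _x_at (SIX2, SALL1 and PAX8), 2 where most probe sets of a gene had to pass (SIX2 and SALL1), and 5 to 6 with an array left out. A lower percentile, 2 arrays sufficing and leaving out an array can only add calls, so the count of 5 could not fall there. Quantile normalization keeps the order within an array and so cannot change a call. Calls could be lost only at the 99th percentile, with another reference, without the marked probe sets or where most probe sets had to pass. The counts out of 11 for WT1, PAX8 and EYA1 therefore overstate how firm these calls are. Genes at large also lost calls in these settings. Of all 19775 genes measured, 10002 were above background, against 7814 at the 99th percentile and 7417 where most probe sets had to pass. Without the marked probe sets 7385 were, with some genes, such as WT1, left without a probe set. The lower member counts are thus not read as a result about the members. The count of all genes stayed within 1.5 times of 10002 throughout. The comparison of 48 h with 24 h gave 68 calls, with 0 left when limma's mean-variance trend was dropped (1352 at an unadjusted p under 0.05) and 90 without the filter on low signals, and after scaling to equal medians 19 were higher and 39 lower in place of 16 and 52. The kidney lists held 1 called probe set, that of PTPRO, and 0 without the trend. Of the 8 factors 0 probe sets were called under any alternative. With the low-seeded or the high-seeded 48 h culture left out, which leaves values without a test, the log2 difference ranged from -0.00352 to 0.48 for WT1, from -0.49 to 0.16 for PAX2, from -0.0113 to 0.45 for the SIX2 probe set 206511_s_at and from -0.44 to 0.0320 for the SALL1 probe set 206893_at. No paired analysis was possible, because there is 1 array at 24 h and no label links it to either 48 h culture. Replicate numbers were given in accession order and do not pair cultures. For probe sets not above background, arrays differed by a median of 0.47 to 0.52 on the log2 scale, against 0.15 to 0.18 for those above it, which limits what the low signals of PAX2, OSR1 and LHX1 show.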
